A study of Homo sapiens with 12 samples.

Results

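The 46 interferon-stimulated genes described here were chosen by gene symbol from a table of read counts that lists 20114 symbols. All 46 were in the table and all 46 had enough counts to be tested, among 13872 genes tested. The counts came from RNA-seq of total RNA from T47D, an established human breast carcinoma line that carries progesterone receptor. The cells were held in medium with steroid-stripped serum, deprived of serum to synchronize them, and treated for 6 h or 18 h with vehicle or with 100 pM or 10 nM of a progestin, an agonist of that receptor. The labels name neither the progestin nor the vehicle. Each of the 6 groups (vehicle, 100 pM and 10 nM, each at 6 h and at 18 h) had 2 libraries, numbered replicate 1 and replicate 3, and the starvation was shared by all of them, vehicle included. The comparison asks how the response of such cells depends on the progestin concentration. Whether the libraries of 1 group were grown separately is not given in the sources used here, so the p-values speak to the spread between these samples alone, which may be technical, and every library is of 1 cell line.

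Interferons are secreted proteins that bind cell surface receptors and, through the kinases JAK1 and TYK2, activate a transcription factor complex, with STAT2 and IRF9 among its subunits, that binds a short element, the interferon-stimulated response element (ISRE), in the promoters of its target genes. The products of these targets sense viral RNA, degrade or sequester it, tag proteins with the ubiquitin-like ISG15, and feed back on the pathway itself, and many of the genes keep a basal level without added interferon. The progesterone receptor is a ligand-activated transcription factor, and progestins have been described as lowering interferon-stimulated genes in breast cancer cells.

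Total counts ran from 34204970 to 41373890 per library. The 46 genes together took 0.0852% and 0.0891% of the counts in the 10 nM libraries of 6 h and 0.102% and 0.0956% in those of 18 h, below every vehicle and 100 pM library (0.119% to 0.171%). Levels are given below in CPM, which are counts scaled to the size of the library, with replicate 1 before replicate 3, and changes as log2 fold changes with their SE. The receptor gene PGR stood at 2111 and 1786 CPM in vehicle at 6 h and at 589 and 493 CPM at 10 nM, and fell there by 1.85 ± 0.30 on the log2 scale (adjusted p = 0.00124). The 8 luminal epithelial markers, PGR among them, summed to 9850 to 11400 CPM in vehicle and 100 pM libraries and to 5210 to 6990 CPM at 10 nM. Not every marker fell with that sum. The mean of EPCAM was 165 CPM in vehicle and 164 CPM at 10 nM for 6 h, and 174 and 196 CPM at 18 h. Leukocyte markers PTPRC, CD3E, CD14, LYZ and HLA-DRA had at most 6 counts in any library, and the 8 leukocyte markers summed to 3.16 to 5.95 CPM, lowest at 10 nM (3.16 to 3.86 CPM at 6 h and 4.07 to 4.44 CPM at 18 h). The 5 fibroblast markers summed to 73.3 to 121 CPM, lowest at 10 nM for 18 h (73.3 to 81.2 CPM). Most of that sum was COL1A1 (66.1 to 114 CPM), while COL1A2 had at most 1 count. PDGFRB had 15 counts in each 10 nM library of 6 h, 6 and 4 in those of 18 h, and 0 to 3 in the rest. Among them COL3A1 followed the replicate number, with 0.603 to 1.81 CPM in replicate 1 and 5.98 to 9.48 CPM in replicate 3. Of 4 endothelial markers 3 were in the table. CDH5 had at most 1 count. KDR had at most 4 counts and none in any 10 nM library. VWF (3 to 33 counts) held 0.0812 to 0.252 CPM in vehicle and 100 pM libraries and 0.526 to 0.927 CPM at 10 nM. The part of these marker levels in the results below was not tested. In such bulk RNA, fewer cells of a type and less RNA per cell cannot be told apart.

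The promoters of the members carried the ISRE more often than promoters at large. RefSeq windows (GRCh38.p14, 250 bases before to 50 bases after the annotated start, while the counts rest on hg19) matched 39 of the 46 members. The ISRE was searched as TTTC, any 2 bases and TTTC again, on either strand and with overlapping matches allowed. It was in 24 of these 39 members (61.5%), against 1255 of 35116 windows of all genes (3.57%). For members with more than 1 window only the first was searched, while the figure for all genes counts every window. The full consensus of the progesterone response element, searched on both strands, was in none of the 39 and in 0.390% of all windows. Stretches around the first ISRE match are shown for members from several patterns of response described below, with none called up at 10 nM among them. They run 5′ to 3′ on the strand of the gene, with the matched bases in capitals. IFIT1 (chr10:89392495-89392541), OAS3 (chr12:112938319-112938352), ISG15 (chr1:1013372-1013411), BST2 (chr19:17405733-17405772, minus strand) and SAMD9 (chr7:93118094-93118127, minus strand) fell at 10 nM, HERC5 (chr4:88456982-88457021) rose at 100 pM, and PARP14 (chr3:122680798-122680831) was lower at 10 nM than at 100 pM.
IFIT1: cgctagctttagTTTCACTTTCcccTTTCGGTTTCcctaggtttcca
OAS3: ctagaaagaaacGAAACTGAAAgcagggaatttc
ISG15: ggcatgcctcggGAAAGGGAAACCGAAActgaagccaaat
BST2: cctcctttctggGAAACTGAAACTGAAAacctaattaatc
SAMD9: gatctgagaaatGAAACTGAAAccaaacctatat
HERC5: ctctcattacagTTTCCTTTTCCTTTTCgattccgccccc
PARP14: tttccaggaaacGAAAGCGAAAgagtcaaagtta

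Each capital run above is a match or a chain of overlapping matches, and IFIT1 held a pair of separate matches. The windows of OAS3 and HERC5 each held a further match outside the stretch shown. The motif was in 8 of the 16 matched members that fell at 10 nM at either time (5 more that fell had no window), in 2 of the 4 that rose in some comparison with vehicle (HERC5 and PARP12), and in 14 of the 19 that were called in no comparison with vehicle. PARP9, SP110, RSAD2, CMPK2, XAF1 and UBE2L6 had no match in the first window, and their other windows were not searched. The search required 2 bases between the TTTC runs, so a spacing of 1 base was not counted. That closer spacing stood in the windows of DDX58, OAS1, TRIM25, XAF1 and IFI35, which fell and were scored without a match. It also stood in RSAD2, called in no comparison with vehicle, and in SP110, which rose. The shares hold for the searched spacing alone and do not show that members that fell carried the element less often. These shares were not tested, and a match describes letters in a window, not binding.

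Before the doses were compared, the libraries of each group were set against each other, because the members differed between replicate numbers more than other genes did. In vehicle at 6 h, 37 of the 46 were higher in replicate 1 than in replicate 3, with a median log2 ratio of 0.52, against -0.01 over all genes tested. In vehicle at 18 h and in 100 pM at 18 h, 42 of 46 were higher in replicate 1, with medians of 0.72 and 0.58. At 100 pM for 6 h the count was 19 of 46 (median -0.15), and at 10 nM it was 22 of 46 at 6 h (median -0.03) and 33 of 46 at 18 h (median 0.28). Over all genes tested, 47.8% to 52.6% were higher in replicate 1 in the 6 groups. In vehicle, 15 members at each time were at least 2-fold higher in replicate 1, against 2.63% of all genes at 6 h and 2.74% at 18 h. No member in vehicle was at least 2-fold higher in replicate 3. What sets the replicate numbers apart was not tested.

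**Figure D1:**
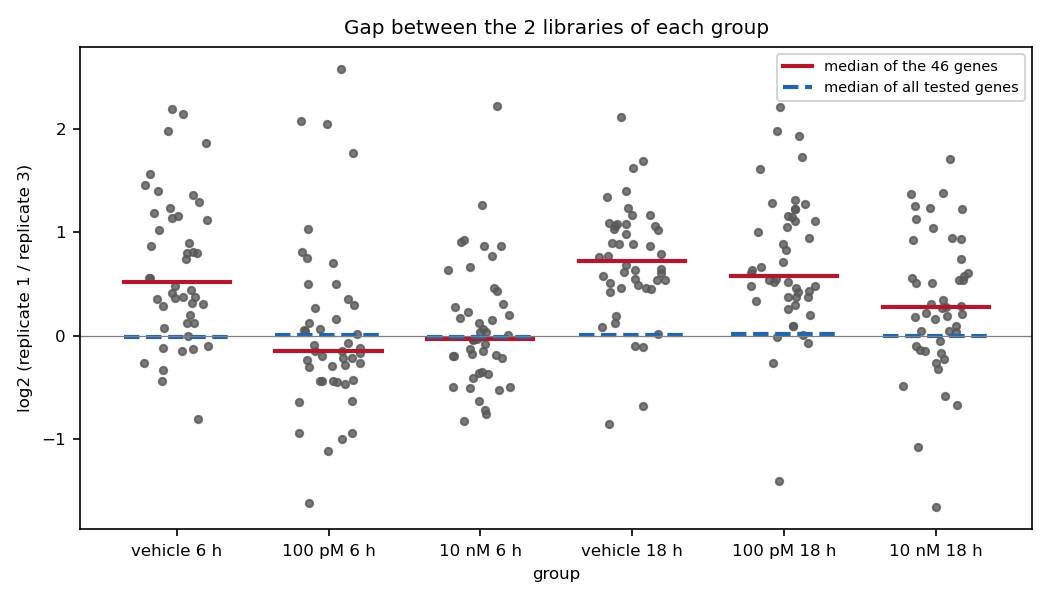
Gap between the libraries of each group. Each point is 1 of the 46 genes, the y axis is the log2 ratio of replicate 1 to replicate 3, red bars mark the median of the 46 and dashed blue bars the median of all tested genes; the red bars stand at 0.52, -0.15, -0.03, 0.72, 0.58 and 0.28 from left to right, while the blue bars lie near 0.

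At 10 nM for 6 h the group as a whole stood below vehicle, with TRIM22 far above it. Of the 46 members 14 fell (30.4%) and 3 rose (6.52%), against 19.4% and 22.6% of all genes tested, where a call is an adjusted p under 0.05 in edgeR over all genes tested. The falls were in DDX58, IRF9, OAS1, OAS2, OASL, IFIT1, IFIT2, MX2, TRIM25, USP18, CMPK2, SAMD9, SAMD9L and IFI44, and the rises in TRIM22, PARP12 and SP110. The median log2 fold change of the 46 was -0.50, against -0.02 for all genes, and 39 of 46 lay below 0. In 27 members both 10 nM libraries were below both vehicle libraries, and in 4 both were above (35.4% and 36.1% of all genes). Within the replicate numbers 32 were lower at 10 nM in both and 6 higher in both (44.9% and 42.9% of all genes), with medians of -0.87 in replicate 1 and -0.34 in replicate 3. With replicate number added to the fit as a block, 23 members fell and 4 rose, against 30.9% and 31.6% of all genes. Without either 10 nM library, or without vehicle replicate 1, 5 falls were left, and without vehicle replicate 3, 12; DDX58, TRIM25, USP18 and TRIM22 stayed called whichever library was left out.

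At 10 nM for 18 h the group again stood below vehicle. Here 16 fell (34.8%) and 1 rose (2.17%), against 15.2% and 19% of all genes. The falls were in DDX58, IRF9, OAS1, OAS2, OAS3, IFIT1, MX1, ISG15, TRIM25, USP18, CMPK2, BST2, SAMD9L, IFI35, IFI44L and XAF1, and the rise in TRIM22. The median was -0.56, against 0.00 for all genes, and 37 of 46 lay below 0. Both 10 nM libraries were below both vehicle libraries in 24 members and above them in 1 (32.6% and 33.2% of all genes). Within the replicate numbers 31 were lower at 10 nM in both and 4 higher in both (42.6% and 42% of all genes), with medians of -0.70 and -0.42. With the block, 26 fell and 3 rose, against 27.3% and 28.7% of all genes. Without vehicle replicate 1, 2 falls were left, without 10 nM replicate 1 or replicate 3, 6 and 5, and without vehicle replicate 3, 18; OAS2, TRIM25 and TRIM22 stayed called in each case.

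At 100 pM few members were called. At 6 h TRIM22, PARP9 and HERC5 rose (6.52%) and TRIM25 fell (2.17%), against 2.88% and 0.606% of all genes, and the median was -0.06. Within the replicate numbers 10 were lower at 100 pM in both and 8 higher in both (39.7% and 31.7% of all genes). Both 100 pM libraries were below both of vehicle in 3 members and above them in 6 (19.6% and 17.1% of all genes). The median ran in opposite directions in the separate replicate numbers, at -0.24 in replicate 1 and 0.26 in replicate 3, and without vehicle replicate 1 it was 0.36 and without vehicle replicate 3 it was -0.31. With the block DTX3L and HERC6 were also called up and USP18 down, against 7.59% up and 4.64% down among all genes, and without either vehicle library TRIM22 was the 1 rise left. At 18 h TRIM22 rose and TRIM25 fell (2.17% each), against 6.57% and 3.89% of all genes, with a median of -0.21. The libraries did not overlap in 7 members that were lower and 3 that were higher (28.1% and 24% of all genes). Within the replicate numbers 29 were lower at 100 pM in both and 12 higher in both (43.6% and 35.2% of all genes). The median was -0.20 in each number, against -0.03 and -0.04 over all genes. With the block 3 members rose (TRIM22, PARP9 and DTX3L) and 5 fell (STAT2, IRF9, TRIM25, EIF2AK2 and LGALS3BP), against 17% of all genes in each direction. The median at 18 h was -0.54 without 100 pM replicate 1 and 0.21 without vehicle replicate 1.

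The doses were also compared with each other, using the same 100 pM and 10 nM libraries as above. At 6 h 17 members were lower at 10 nM (37%) and 2 were higher, PARP12 and SP110 (4.35%), against 16.8% and 20.1% of all genes, with a median of -0.80 against -0.03. Both 10 nM libraries were below both of 100 pM in 32 members and above them in 3 (34.5% and 34% of all genes). Within the replicate numbers 37 were lower at 10 nM in both and 8 higher in both (45.4% and 40.9% of all genes). With the block 27 were lower and 3 higher, against 29.8% and 29.5% of all genes. Without 100 pM replicate 3, 10 nM replicate 1 or 10 nM replicate 3, the 17 became 5, 6 and 7, and DDX58, PARP9, DTX3L and TRIM25 stayed called whichever library was left out. At 18 h 7 members were lower at 10 nM (15.2%) and none was higher, against 11.4% and 14.8% of all genes, with a median of -0.38 against 0.01. The libraries did not overlap in 22 members that were lower and 3 that were higher (28.7% and 31.4% of all genes). Within the replicate numbers 31 were lower at 10 nM in both and 9 higher in both (40.3% and 40.8% of all genes). With the block 20 were lower and 3 higher, against 24.7% and 25.4%, and without 100 pM replicate 1, 10 nM replicate 1 or 10 nM replicate 3 the 7 became 2, 1 and 2, with OAS2 called each time.

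**Figure D2:**
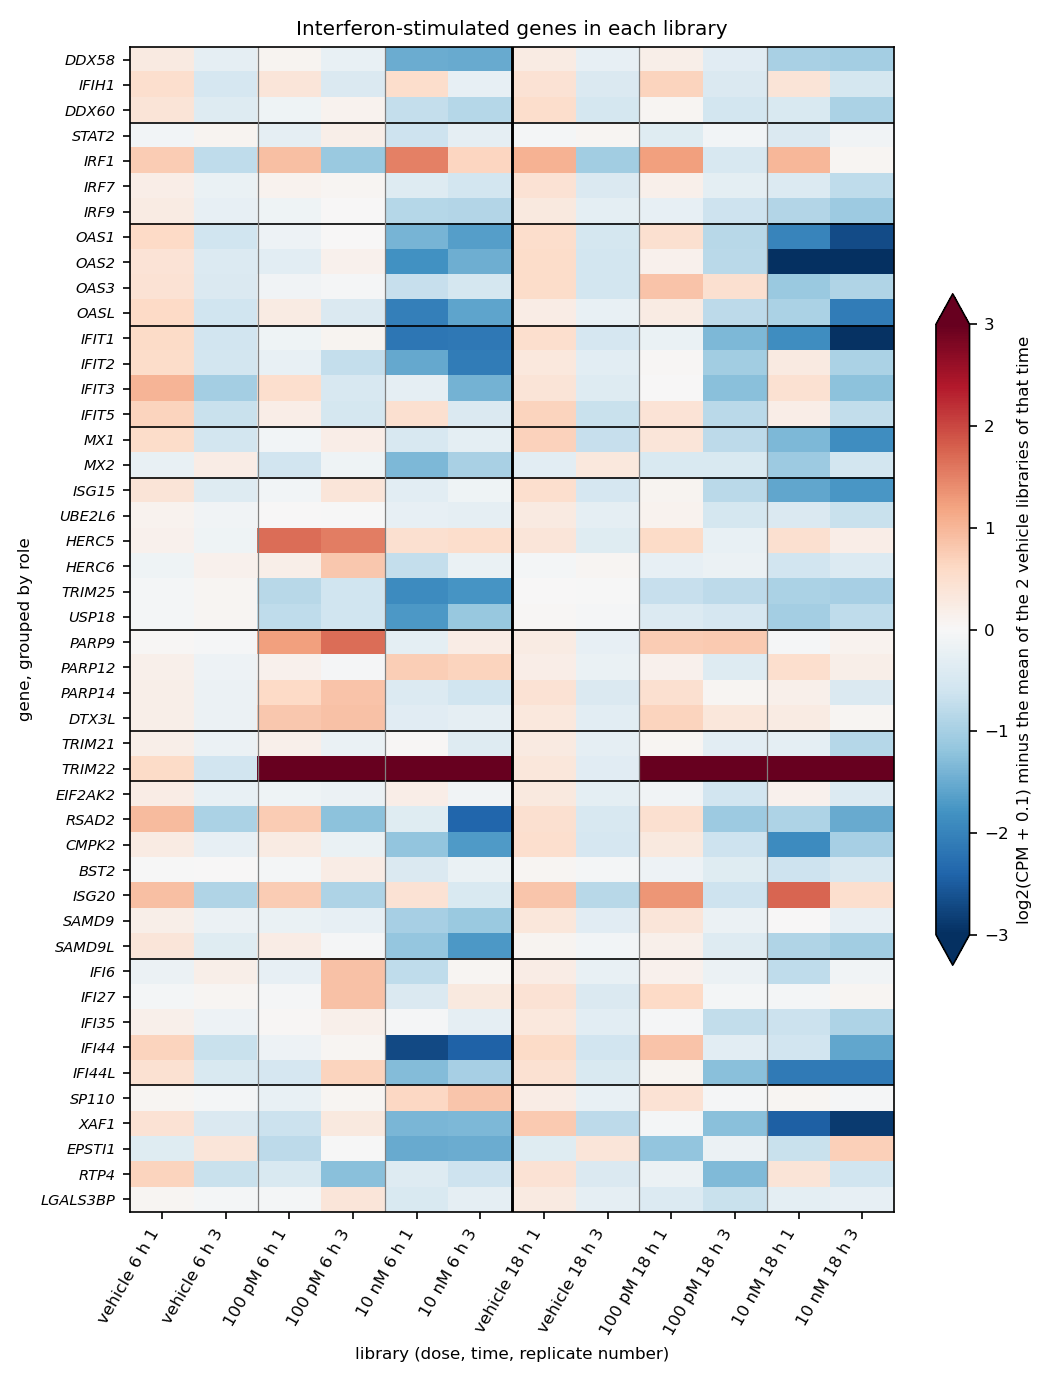
The 46 genes (rows, by role) in the 12 libraries (columns). Colour is log2(CPM + 0.1) minus the mean of the vehicle libraries of that time, blue below and red above, with colours held at the ends of the scale beyond 3; the 10 nM columns are bluer than the vehicle columns for most genes, and TRIM22 is at the red end at both doses.

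The interferon genes themselves had almost no counts. Of 24 interferon ligand symbols listed, 21 were in the table. The rest, IL28A, IL28B and IL29, are older symbols of IFNL2, IFNL3 and IFNL1, which were in it. Of the 21, 16 had no count in any library, and the highest count of any ligand in 1 library was 6, for IFNL1. IFNB1, the type I interferon that most cells can make, had 0 to 2 counts per library, and IFNG, made by lymphocytes, had 1 count over all 12. The receptor chains were expressed: IFNAR1 stood at 127 and 120 CPM in vehicle at 6 h and 115 and 107 CPM at 10 nM, with a log2 fold change of -0.15 ± 0.07 (adjusted p = 0.12), and -0.17 ± 0.07 at 18 h (adjusted p = 0.0916). With the block both differences of IFNAR1 were called (adjusted p = 0.04 and 0.024). IFNAR2 rose at 100 pM for 18 h by 0.88 ± 0.22 (adjusted p = 0.0369) and was not called against vehicle at 10 nM. That rise was not called whichever of the 4 libraries was left out (adjusted p = 0.0652 to 0.198) or with 18 h alone (0.119). IFNLR1, the receptor chain particular to lambda interferons, fell at 10 nM at both times (-0.79 ± 0.11 and -0.73 ± 0.11, adjusted p = 0.000419 and 0.000839).

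The receptor kinases did not go the way of the members. JAK1 went from 166 and 182 CPM in vehicle to 274 and 309 CPM at 10 nM for 6 h, a rise of 0.74 ± 0.10, and rose by 0.68 ± 0.10 at 18 h (adjusted p = 0.000416 and 0.000908). TYK2 rose by 0.90 ± 0.09 and 0.81 ± 0.09 (adjusted p = 7.55e-05 and 0.000158). Over the 36 tested pathway genes that are no members, 7 rose (19.4%) and 5 fell (13.9%) at 10 nM for 6 h, against 22.6% and 19.4% of all genes. At 18 h 8 rose (22.2%) and 6 fell (16.7%), against 19% and 15.2%. At 100 pM there was 1 rise and no fall at 6 h and 1 rise and 2 falls at 18 h, against 2.88% and 0.606%, and 6.57% and 3.89%, of all genes. With the block 14 rose and 11 fell at 10 nM for 6 h (38.9% and 30.6%, against 31.6% and 30.9% of all genes). At 18 h it gave 11 rises and 13 falls (30.6% and 36.1%, against 28.7% and 27.3%). At 100 pM the block gave 1 rise and 6 falls at 6 h and 7 rises and 6 falls at 18 h, against 7.59% and 4.64%, and 17% in each direction, of all genes. Others of these that were called against vehicle at 10 nM were, upward, JAK2, STAT3, the adaptor TMEM173 (STING, 2.27 ± 0.28 at 6 h and 2.39 ± 0.28 at 18 h) and the RNA helicase DHX58 (1.05 ± 0.11 and 1.17 ± 0.11) at both times, the STAT inhibitor SOCS1 at 6 h (2.75 ± 0.93), and the kinase IKBKE (0.99 ± 0.17) and receptor chain IL10RB (0.46 ± 0.11) at 18 h. Downward, the cytokine signal inhibitors CISH (-2.30 ± 0.24 and -2.73 ± 0.25) and SOCS3 (-1.73 ± 0.40 and -1.13 ± 0.38) and the STAT inhibitor PIAS1 (-0.63 ± 0.12 and -0.37 ± 0.12) fell at both times, the RNA sensor TLR3 at 6 h (-1.24 ± 0.39), and IRF3 (-0.45 ± 0.15) and the corepressor IRF2BP2 (-0.41 ± 0.12) at 18 h. Between the doses PTPN2, a phosphatase of JAK1, was higher at 10 nM at both times (0.39 ± 0.10 and 0.43 ± 0.10) and the ubiquitin ligase TRIM27 lower at 18 h (-0.43 ± 0.10). Each of these calls was lost without some library. Of the calls against vehicle at 10 nM, 8 of 12 at 6 h and 8 of 14 at 18 h were kept whichever library was left out, those of JAK1, TYK2, TMEM173, DHX58, CISH and IFNLR1 at both times. The SOCS1 call did not survive the loss of a library, whichever it was (adjusted p = 0.0715 to 0.2). It was also lost with no filter on low counts (0.053). The same held for SOCS3, PIAS1 and IRF3 at 18 h (adjusted p = 0.0524 to 0.239). RLE scaling also ended the IRF3 call (0.0551). JAK2, TLR3 and SOCS3 at 6 h and STAT3, IL10RB and IRF2BP2 at 18 h lost their call without some library (adjusted p = 0.053 to 0.195).

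Among the members, 1 of the 3 RNA sensors fell at 10 nM, at both times. DDX58 encodes RIG-I, the cytoplasmic sensor of RNA with a triphosphate end. It stood at 41.8 and 28.4 CPM in vehicle at 6 h, 36.7 and 29.7 CPM at 100 pM, and 12.2 and 11.9 CPM at 10 nM. At 18 h the values were 49.9 and 34.9 CPM in vehicle, 46.8 and 32.8 CPM at 100 pM, and 21.1 and 20.6 CPM at 10 nM. At both times the 10 nM libraries lay below the other 4, and the 100 pM libraries overlapped vehicle. Against vehicle DDX58 fell by 1.54 ± 0.25 at 6 h (adjusted p = 0.00136) and by 1.02 ± 0.25 at 18 h (adjusted p = 0.0121). The 18 h call was lost without either 10 nM library or vehicle replicate 1 (adjusted p = 0.051 to 0.0837). IFIH1, which encodes MDA5, the sensor of long double-stranded RNA, followed the replicate number and not the dose. Its 6 libraries of replicate 1 held 38.5 to 58.7 CPM and those of replicate 3 20.8 to 27.2 CPM, and no log2 fold change among the doses was beyond 0.21 in size (SE 0.55). DDX60, a helicase that assists these sensors, was lower at 10 nM without a call (-0.84 ± 0.39 at 6 h and -0.78 ± 0.39 at 18 h), and with the block it was called at both times (adjusted p = 0.0254 and 0.0362).

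Of the 4 transcription factors, IRF9, the DNA-binding subunit of the complex that binds the ISRE, fell at both times. IRF9 stood at 37.0 and 26.6 CPM in vehicle at 6 h, 28.7 and 31.9 CPM at 100 pM, and 17.3 and 17.0 CPM at 10 nM, and at 18 h at 44.6 and 29.3 CPM, 30.2 and 23.4 CPM, and 19.5 and 16.8 CPM in the same order. The 10 nM libraries lay below all others of their time, and IRF9 fell by 0.89 ± 0.23 at 6 h (adjusted p = 0.013) and by 1.02 ± 0.23 at 18 h (adjusted p = 0.00865). Without vehicle replicate 1 it was -0.64 and -0.69 (adjusted p = 0.088 and 0.0582), and without either 10 nM library the 6 h call was also lost (adjusted p = 0.06 and 0.061). STAT2, its partner, held 117 and 130 CPM in vehicle at 6 h, 102 and 139 CPM at 100 pM and 80.3 and 102 CPM at 10 nM, and 126 and 135 CPM, 101 and 122 CPM, and 97.0 and 121 CPM at 18 h. At both times the 10 nM libraries lay below both of vehicle, while the 100 pM libraries overlapped vehicle at 6 h and lay below it at 18 h. The log2 fold changes at 10 nM were -0.44 ± 0.18 at 6 h (adjusted p = 0.0885) and -0.26 ± 0.18 at 18 h (adjusted p = 0.318), and both were called with the block (adjusted p = 0.000353 and 0.0116). IRF7, the master factor of type I interferon induction, held 16.9 and 12.7 CPM in vehicle, 15.7 and 15.3 CPM at 100 pM and 11.2 and 10.0 CPM at 10 nM for 6 h. Its 18 h libraries held 23.9 and 12.8 CPM, 19.6 and 14.2 CPM, and 13.1 and 10.3 CPM, so the 10 nM libraries lay below vehicle at 6 h and overlapped it at 18 h. Its changes at 10 nM (-0.48 ± 0.29 and -0.65 ± 0.29) were called with the block alone (adjusted p = 0.0295 and 0.00757). IRF1, a factor that interferon gamma induces strongly, differed most between replicate numbers, with 10.8 and 3.64 CPM in vehicle, 11.8 and 2.83 CPM at 100 pM and 18.0 and 9.90 CPM at 10 nM for 6 h. The 18 h libraries held 19.8 and 4.58 CPM, 22.7 and 6.81 CPM, and 19.0 and 10.0 CPM. Replicate 1 exceeded replicate 3 in each of the 6 groups, and the difference at 10 nM for 6 h (0.96 ± 0.93, adjusted p = 0.445) was called with the block alone (1.08 ± 0.30, adjusted p = 0.0121). Of the exon bases of IRF1, 22% are shared with the antisense gene C5orf56 (20 to 80 counts per library), and no source used here gives the strand setting of the counting.

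The OAS enzymes, which make the short adenylate chains that switch on RNase L, held the deepest fall at 18 h among members with counts at 10 nM, and 3 of the 4 fell at each time. OAS2 stood at 21.5 and 12.3 CPM in vehicle, 13.1 and 17.7 CPM at 100 pM and 4.57 and 5.87 CPM at 10 nM for 6 h. The 18 h levels were 34.8 and 16.4 CPM, 26.1 and 13.6 CPM, and 2.64 and 1.01 CPM. The 10 nM libraries lay below all others of their time, and OAS2 fell by 1.69 ± 0.53 at 6 h (adjusted p = 0.0305) and fell by 3.81 ± 0.59 at 18 h (adjusted p = 0.00128), the latter called whichever library was left out. OAS1 stood at 7.58 and 3.30 CPM, 4.53 and 5.03 CPM, and 1.85 and 1.52 CPM at 6 h, and at 15.0 and 7.23 CPM, 14.5 and 5.85 CPM, and 2.58 and 1.54 CPM at 18 h. It fell by 1.69 ± 0.58 and 2.43 ± 0.58 at 10 nM (adjusted p = 0.044 and 0.0115), again with no overlap. Without vehicle replicate 1 the values were -0.97 and -1.81 (adjusted p = 0.27 and 0.0701), and the 6 h falls of OAS1, OAS2 and OASL were also lost without either 10 nM library (adjusted p = 0.0685 to 0.171). OAS3, the longest of the family, had its own order. It held 86.2 and 47.2 CPM in vehicle, 58.9 and 62.5 CPM at 100 pM and 39.7 and 44.1 CPM at 10 nM for 6 h, and 109 and 51.4 CPM, 136 and 105 CPM, and 34.4 and 40.2 CPM at 18 h. The 10 nM libraries lay below all others of their time, by the wider margin at 18 h, where 100 pM overlapped vehicle. At 18 h OAS3 fell by 1.10 ± 0.36 against vehicle (adjusted p = 0.0435; -0.46 and 0.335 without vehicle replicate 1) and was lower than at 100 pM (-1.69 ± 0.36, adjusted p = 0.00949). OASL, a relative that lacks the enzyme activity and binds RIG-I, fell at 6 h by 2.03 ± 0.60 (adjusted p = 0.0245) and was not called at 18 h (-1.47 ± 0.56, adjusted p = 0.0751) unless the block was added (-1.53 ± 0.30, adjusted p = 0.00106).

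**Figure D3:**
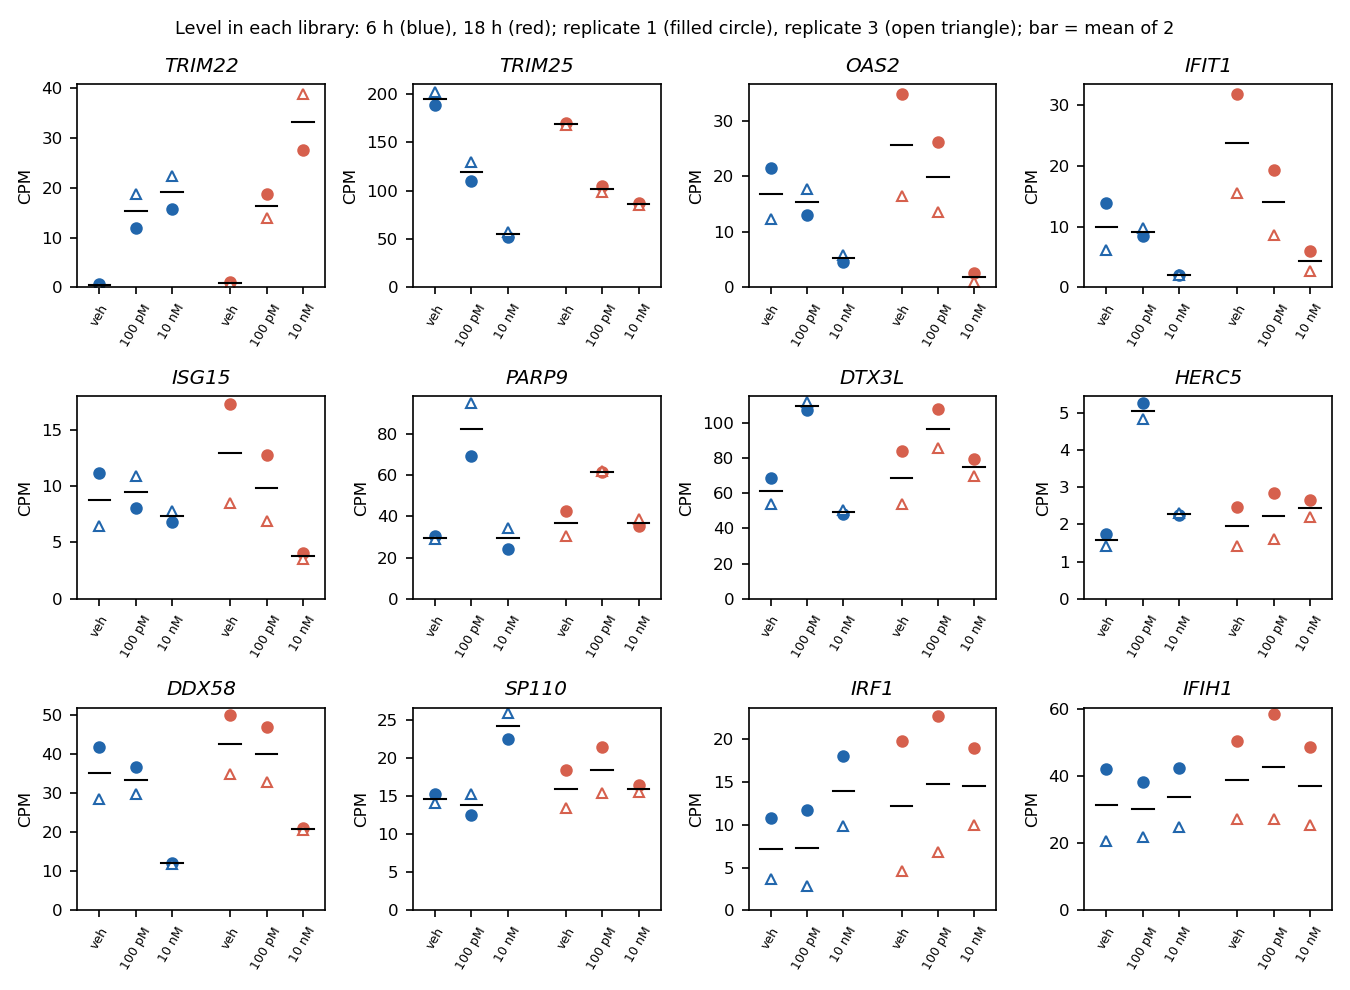
Levels of 12 of the genes in CPM in every library, on linear axes from 0. Circles are replicate 1, triangles replicate 3, bars the mean of the 2 libraries, blue 6 h and red 18 h; TRIM25, OAS2, IFIT1 and DDX58 are lowest at 10 nM, PARP9, DTX3L and HERC5 are highest at 100 pM for 6 h, and IFIH1 splits by replicate number.

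The IFIT proteins bind foreign RNA by its end, and 2 of the 4, IFIT1 and IFIT2, fell at 6 h and IFIT1 at 18 h. IFIT1, which recognizes RNA caps that lack ribose methylation, fell at 10 nM by 2.31 ± 0.59 at 6 h (adjusted p = 0.0132), from 13.8 and 6.17 CPM to 1.99 and 2.03 CPM. At 18 h it fell by 2.43 ± 0.57 (adjusted p = 0.011), from 31.9 and 15.6 CPM to 6.03 and 2.75 CPM. IFIT2 fell at 6 h (-1.99 ± 0.61, adjusted p = 0.0281) and at 18 h gave -0.26 ± 0.54 (adjusted p = 0.749). The test of that difference between times gave 1.72 ± 0.81 (adjusted p = 0.219), and 1.63 ± 0.30 with the block (adjusted p = 0.00149). IFIT3, the partner that stabilizes IFIT1, and IFIT5 were called in no comparison, although with the block IFIT3 was lower at 10 nM for 6 h (-1.06 ± 0.32, adjusted p = 0.0121). The MX proteins are GTPases that trap viral nucleocapsids. MX2 fell at 6 h (-1.24 ± 0.34, adjusted p = 0.0183) and MX1 at 18 h (-1.75 ± 0.55, adjusted p = 0.038), the latter from 88.6 and 33.5 CPM in vehicle to 21.4 and 15 CPM. At 18 h MX2 gave -0.88 ± 0.34 (adjusted p = 0.078), called with the block (adjusted p = 0.00613). Without vehicle replicate 1 IFIT1 gave -1.61 at 6 h and -1.83 at 18 h (adjusted p = 0.0831 and 0.0658), IFIT2 -1.30 at 6 h (adjusted p = 0.169) and MX1 -0.88 at 18 h (adjusted p = 0.278), and without vehicle replicate 3 MX2 gave -1.0 at 6 h (adjusted p = 0.109).

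Of ISG15 and the 5 genes for enzymes that attach or remove it, 2 fell at 6 h and 3 at 18 h. ISG15 stood at 11.2 and 6.43 CPM in vehicle, 8.05 and 10.9 CPM at 100 pM and 6.84 and 7.76 CPM at 10 nM for 6 h, where vehicle overlapped both doses and the 10 nM libraries lay below those of 100 pM. The 18 h levels were 17.3 and 8.5 CPM, 12.7 and 6.87 CPM, and 4.05 and 3.54 CPM, with the 10 nM libraries below the rest. It fell there by 1.76 ± 0.43 (adjusted p = 0.0125), and the difference from 6 h was -1.49 ± 0.59 (adjusted p = 0.148), called with the block (-1.50 ± 0.50, adjusted p = 0.0449). The 18 h fall of ISG15 was -1.16 without vehicle replicate 1 (adjusted p = 0.0869) and lost its call without either 10 nM library too (adjusted p = 0.0546 and 0.0667). USP18, the protease that removes ISG15 and damps the interferon receptor, stood at 4.96 and 5.41 CPM, 3.01 and 3.40 CPM, and 1.5 and 2.31 CPM at 6 h, stepping down with dose and with no overlap. At 18 h it stood at 5.71 and 5.39 CPM, 4.13 and 3.88 CPM, and 2.67 and 3.23 CPM, in the same order. It fell at 10 nM at 6 h and 18 h (-1.44 ± 0.22 and -0.91 ± 0.22, adjusted p = 0.000997 and 0.0118), and at 100 pM for 6 h was called with the block alone (-0.69 ± 0.17, adjusted p = 0.0206). UBE2L6, the conjugating enzyme, was not called (-0.26 ± 0.22 and -0.57 ± 0.22 at 10 nM), and with the block it was at 18 h (adjusted p = 0.00763).

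TRIM25, a ubiquitin ligase that activates RIG-I and also acts on ISG15 conjugation, was the most closely measured fall. It stood at 188 and 202 CPM in vehicle, 110 and 129 CPM at 100 pM and 52.3 and 57.1 CPM at 10 nM for 6 h. Its 18 h levels were 170 and 168 CPM, 104 and 98.3 CPM, and 87.0 and 84.9 CPM. The groups followed dose at both times with no overlap. TRIM25 fell at 100 pM at 6 h and 18 h (-0.71 ± 0.09 and -0.73 ± 0.09, adjusted p = 0.00323 and 0.00207), and at 10 nM by more at 6 h (-1.83 ± 0.10 and -0.97 ± 0.09, adjusted p = 3.69e-06 and 9.68e-05). The fall at 10 nM was smaller at 18 h, with a difference between times of 0.86 ± 0.13 (adjusted p = 0.0069), the 1 such difference called among the members without the block, against 4.55% of all genes called upward and 5.99% downward. With the block it was joined upward by IFIT2, ISG20, SAMD9, IFI44 and EPSTI1 and downward by OAS2, ISG15 and SP110, against 17% and 18.1% of all genes. Between times at 100 pM no member was called without the block by edgeR or by DESeq2 (0% of all genes upward and 0.0144% downward by edgeR). With the block 1 was, HERC5 (3.14% and 2.47% of all genes). At an unadjusted p under 0.05 each tool had 3 members without the block. The share of all genes at that threshold is not given here, so this count does not set the members apart.

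HERC5, the main ligase that attaches ISG15, peaked at 100 pM for 6 h. It stood at 1.76 and 1.43 CPM in vehicle, 5.26 and 4.83 CPM at 100 pM and 2.24 and 2.31 CPM at 10 nM, and at 18 h all 6 libraries lay between 1.44 and 2.86 CPM. HERC5 rose at 100 pM for 6 h by 1.66 ± 0.33 (adjusted p = 0.0278) and was lower at 10 nM than at 100 pM (-1.15 ± 0.32, adjusted p = 0.0226). Whichever of the 4 libraries was left out, the rise was not called (1.52 to 1.81, adjusted p = 0.0997 to 0.223). At 18 h against vehicle it gave 0.20 ± 0.33 at 100 pM (adjusted p = 0.765), and the difference between times was -1.46 ± 0.47 (adjusted p = 0.542), called with the block (-1.47 ± 0.33, adjusted p = 0.0247). HERC6, its neighbour on the chromosome, held 7.63 and 9.2 CPM in vehicle, 9.55 and 14.8 CPM at 100 pM and 5.09 and 7.28 CPM at 10 nM for 6 h, and 8.81 and 9.45 CPM, 7.71 and 8.11 CPM, and 6.11 and 6.88 CPM at 18 h. The 10 nM libraries were lowest at both times. HERC6 was lower at 10 nM than at 100 pM for 6 h (-0.97 ± 0.24, adjusted p = 0.0118; not called without 100 pM replicate 3 or 10 nM replicate 1, adjusted p = 0.1 and 0.0844). Against vehicle at 10 nM it gave -0.44 ± 0.24 at 6 h and -0.49 ± 0.24 at 18 h, both called with the block alone (adjusted p = 0.0206 and 0.0146).

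PARP9, DTX3L and PARP14, which work together in ADP-ribosylation at sites of DNA damage, shared that shape, and they are neighbours on the chromosome. PARP9 and DTX3L share 2.43% and 3.7% of their exon bases with each other. PARP9 stood at 30.4 and 29 CPM in vehicle, 69.5 and 94.9 CPM at 100 pM and 24.4 and 34.5 CPM at 10 nM for 6 h, and at 42.8 and 30.4 CPM, 61.6 and 61.9 CPM, and 35.1 and 39.0 CPM at 18 h. At both times 100 pM lay above the rest and 10 nM overlapped vehicle. PARP9 rose at 100 pM for 6 h by 1.47 ± 0.22 (adjusted p = 0.00636; 1.5 and 1.43 without vehicle replicate 1 or 3, adjusted p = 0.0591 and 0.0646). It was lower at 10 nM than at 100 pM at 6 h and 18 h (-1.48 ± 0.22 and -0.74 ± 0.21, adjusted p = 0.000914 and 0.0339), and at 18 h its difference from vehicle at 100 pM was called with the block alone (0.75 ± 0.20, adjusted p = 0.0187). DTX3L, the ubiquitin ligase bound to PARP9, stood at 68.7 and 53.6 CPM, 107 and 112 CPM, and 48.0 and 50.6 CPM at 6 h, and at 83.8 and 53.8 CPM, 108 and 85.3 CPM, and 79.3 and 69.9 CPM at 18 h. Both times were again highest at 100 pM, with 10 nM below vehicle at 6 h and overlapping it at 18 h. DTX3L was lower at 10 nM than at 100 pM for 6 h (-1.15 ± 0.21, adjusted p = 0.00297), and its difference at 100 pM from vehicle (0.84 ± 0.21, adjusted p = 0.0765) was called with the block (0.85 ± 0.15, adjusted p = 0.00489). PARP14 differed between the doses at 6 h by -1.24 ± 0.31 (adjusted p = 0.0128), from 64.6 and 77.9 CPM to 32.4 and 28.1 CPM, and was not called against vehicle. PARP12, which places ADP-ribose on proteins at the Golgi, went the other way: it rose at 10 nM for 6 h (0.70 ± 0.21, adjusted p = 0.027; 0.0648 to 0.157 without either 10 nM library or vehicle replicate 3) and gave 0.34 ± 0.21 at 18 h (adjusted p = 0.256; 0.0148 with the block).

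TRIM22, a ubiquitin ligase that restricts several viruses, was the 1 member that rose in every comparison with vehicle, and each of these calls was kept whichever library was left out. It stood at 0.585 and 0.205 CPM in vehicle, 12 and 18.8 CPM at 100 pM and 15.8 and 22.4 CPM at 10 nM for 6 h. At 18 h it stood at 1.06 and 0.623 CPM, 18.8 and 14 CPM, and 27.5 and 38.8 CPM. Every treated library was above every vehicle library, and the doses overlapped at 6 h and not at 18 h. The rises were 5.27 ± 0.48 and 4.28 ± 0.44 at 100 pM and 5.58 ± 0.49 and 5.30 ± 0.46 at 10 nM, at 6 h and 18 h (adjusted p = 0.000478, 0.000766, 4.61e-05 and 5.35e-05). The vehicle libraries rest on 8 to 38 counts of TRIM22, so these folds are less precise than the treated levels. Of its exon bases 10.7% are shared with OR56B1, which had 0 to 1 counts per library. The doses differed by 0.31 ± 0.36 at 6 h (adjusted p = 0.531) and 1.02 ± 0.36 at 18 h (adjusted p = 0.0685), the latter called with the block (0.99 ± 0.27, adjusted p = 0.0145). TRIM21, an antibody receptor inside cells, gave -0.17 ± 0.28 and -0.57 ± 0.28 at 10 nM, the latter called with the block (adjusted p = 0.000778).

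**Figure D4:**
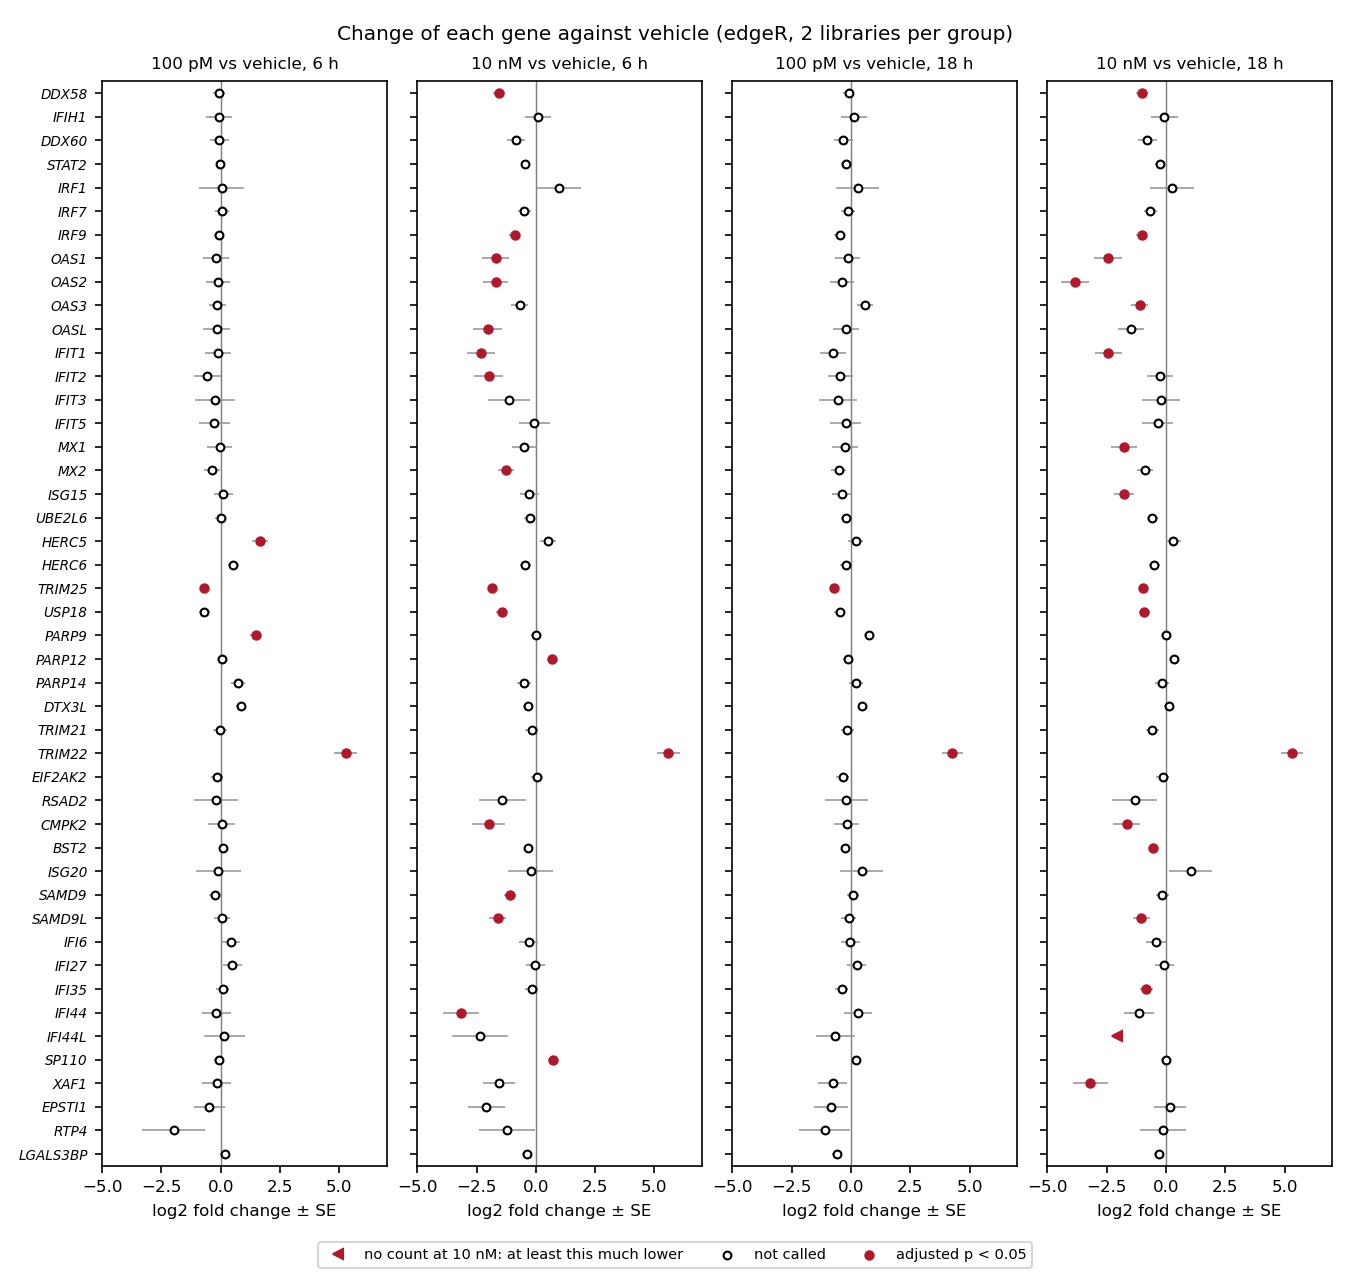
Log2 fold change of each of the 46 genes against vehicle with its SE (horizontal bars), for the 2 doses and 2 times. Filled points were called (adjusted p under 0.05), open points were not, and the triangle for IFI44L marks a bound since the 10 nM libraries of 18 h had no count; TRIM22 stands at 4.28 to 5.58 in all 4 panels, and most other called points at 10 nM are below 0.

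Of the 7 other antiviral effectors 3 fell at each time, and SAMD9L, which stops protein synthesis in infected cells, was 1 of those that fell at both. It stood at 2.24 and 1.33 CPM in vehicle, 2.03 and 1.69 CPM at 100 pM and 0.720 and 0.451 CPM at 10 nM for 6 h, and at 2.66 and 2.33 CPM, 2.78 and 1.89 CPM, and 1.29 and 1.15 CPM at 18 h. The 10 nM libraries lay below all others of their time, with changes of -1.60 ± 0.36 (adjusted p = 0.00686) and -1.03 ± 0.34 (adjusted p = 0.0431). Whichever of the 4 libraries was dropped, the 18 h value was not called (adjusted p = 0.094 to 0.158), and the 6 h value was not without 10 nM replicate 3 (adjusted p = 0.052). Its relative SAMD9 fell at 6 h (-1.08 ± 0.26, adjusted p = 0.0102) and gave -0.15 ± 0.26 at 18 h (adjusted p = 0.686), a difference between times of 0.93 ± 0.37 (adjusted p = 0.148; 0.00519 with the block). BST2, the tether that holds budding virus at the membrane, held 226 and 227 CPM in vehicle, 216 and 266 CPM at 100 pM and 169 and 197 CPM at 10 nM for 6 h. The 18 h libraries held 234 and 215 CPM, 200 and 174 CPM, and 146 and 161 CPM, stepping down with dose and with no overlap. BST2 fell by 0.55 ± 0.13 at 10 nM for 18 h (adjusted p = 0.0102; 0.0672 and 0.0623 without 10 nM replicate 1 or vehicle replicate 1), while the 6 h change of -0.31 ± 0.13 was called with the block alone (adjusted p = 0.0263). CMPK2, a mitochondrial nucleotide kinase, fell at both times on 3 to 63 counts per library (-1.99 ± 0.69 and -1.65 ± 0.56, adjusted p = 0.0462 and 0.0498), and neither call held without 10 nM replicate 1, 10 nM replicate 3 or vehicle replicate 1 (adjusted p = 0.053 to 0.292). RSAD2, or viperin, lies beside it and gave -1.41 ± 0.99 and -1.31 ± 0.95 (adjusted p = 0.291 and 0.329), both called with the block (adjusted p = 0.0068 and 0.00596). ISG20, an exonuclease, differed between replicate numbers in each group and was higher at 10 nM for 18 h with the block alone (1.12 ± 0.21, adjusted p = 0.000812), and EIF2AK2, the kinase PKR, was not called at 10 nM.

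Of the 5 genes named for their inducibility by interferon, 1 fell at 6 h and 2 at 18 h. IFI44 stood at 2.93 and 1.10 CPM in vehicle, 1.62 and 1.89 CPM at 100 pM and 0.194 and 0.254 CPM at 10 nM for 6 h. At 18 h it stood at 3.61 and 1.60 CPM, 4.47 and 1.91 CPM, and 1.58 and 0.758 CPM. At both times the 10 nM libraries were below the others, at 18 h by a margin that was small beside the gap between replicates. IFI44 fell by 3.15 ± 0.75 at 6 h (adjusted p = 0.00956; not called without 10 nM replicate 1 or vehicle replicate 1, adjusted p = 0.0649 and 0.0573) and gave -1.15 ± 0.63 at 18 h (adjusted p = 0.193; 0.0213 with the block). IFI44L, next to it on the chromosome, had 18 and 8 counts in vehicle at 18 h, 14 and 3 at 100 pM, and no count in either 10 nM library. It was at least 4.23-fold lower than vehicle there, taking 3 counts per library as the floor, and was called (adjusted p = 0.0231; 0.0767 to 0.0909 without either 10 nM library or vehicle replicate 1). IFI35 fell at 18 h (-0.82 ± 0.27, adjusted p = 0.044; -0.48 and 0.274 without vehicle replicate 1), while IFI6 and IFI27 were called in no comparison, with or without the block, and lay between -0.42 and 0.49 against vehicle without it.

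Of the 5 remaining members 1 rose at 6 h and 1 fell at 18 h. The fall was in XAF1, which opposes the inhibitor of apoptosis XIAP. It stood at 2.16 and 1.15 CPM in vehicle, 0.979 and 1.97 CPM at 100 pM and 0.554 and 0.564 CPM at 10 nM for 6 h, and at 4.36 and 1.41 CPM, 2.39 and 0.985 CPM, and 0.373 and 0.253 CPM at 18 h. The 10 nM libraries were below all others of their time, with a change of -1.56 ± 0.68 at 6 h (adjusted p = 0.098; 0.0487 with the block) and of -3.19 ± 0.73 at 18 h (adjusted p = 0.0096; 0.0621 and 0.06 without 10 nM replicate 3 or vehicle replicate 1). SP110, a nuclear body protein, rose at 10 nM for 6 h from 15.2 and 14 CPM to 22.5 and 25.9 CPM (0.73 ± 0.20, adjusted p = 0.0176; 0.0533 to 0.0959 without 10 nM replicate 3 or either vehicle library) and at 18 h was at 0.00 ± 0.20. The difference between times was -0.72 ± 0.28 (adjusted p = 0.143; 0.044 with the block). EPSTI1 had 5 to 30 counts per library and gave -2.08 ± 0.77 at 10 nM for 6 h (adjusted p = 0.0568), called with the block (-2.07 ± 0.47, adjusted p = 0.00221), and 0.17 ± 0.67 at 18 h. RTP4, with 0 to 12 counts, and LGALS3BP, a secreted glycoprotein, were not called in any comparison without the block.

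Set side by side at the 2 times, 10 nM lowered 9 members at both (DDX58, IRF9, OAS1, OAS2, IFIT1, TRIM25, USP18, CMPK2 and SAMD9L), 5 at 6 h alone and 7 at 18 h alone, and raised TRIM22 at both. These are 19.6%, 10.9%, 15.2% and 2.17% of the members, against 9.29%, 10.1%, 5.87% and 12.9% of all genes. A call at 1 time alone does not show that the times differ, and the test of the difference was passed by TRIM25 alone without the block. With the block 19 members were called down at both times, 4 at 6 h alone and 7 at 18 h alone, against 17.8%, 13% and 9.49% of all genes. Over all 6 dose comparisons 29 of the 46 were called at least once (63%, against 59.8% of all genes) and 17 in none (IFIH1, DDX60, STAT2, IRF1, IRF7, IFIT3, IFIT5, UBE2L6, TRIM21, EIF2AK2, RSAD2, ISG20, IFI6, IFI27, EPSTI1, RTP4 and LGALS3BP). With the block IFIH1, IFIT5, IFI6, IFI27 and RTP4 were the 5 called in none, and 86.5% of all genes were called at least once. In vehicle itself 42 of 46 members were higher at 18 h than at 6 h, with a median of 0.28 against -0.01 for all genes. No member was called in that comparison by edgeR (0% of all genes), by DESeq2, or with the block (0.0288% of all genes upward). At an unadjusted p under 0.05 edgeR had 2 members and DESeq2 4. The share of all genes at that threshold is not given here, so these counts do not set the members apart. Without vehicle 18 h replicate 1 the median was -0.10.

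**Figure D5:**
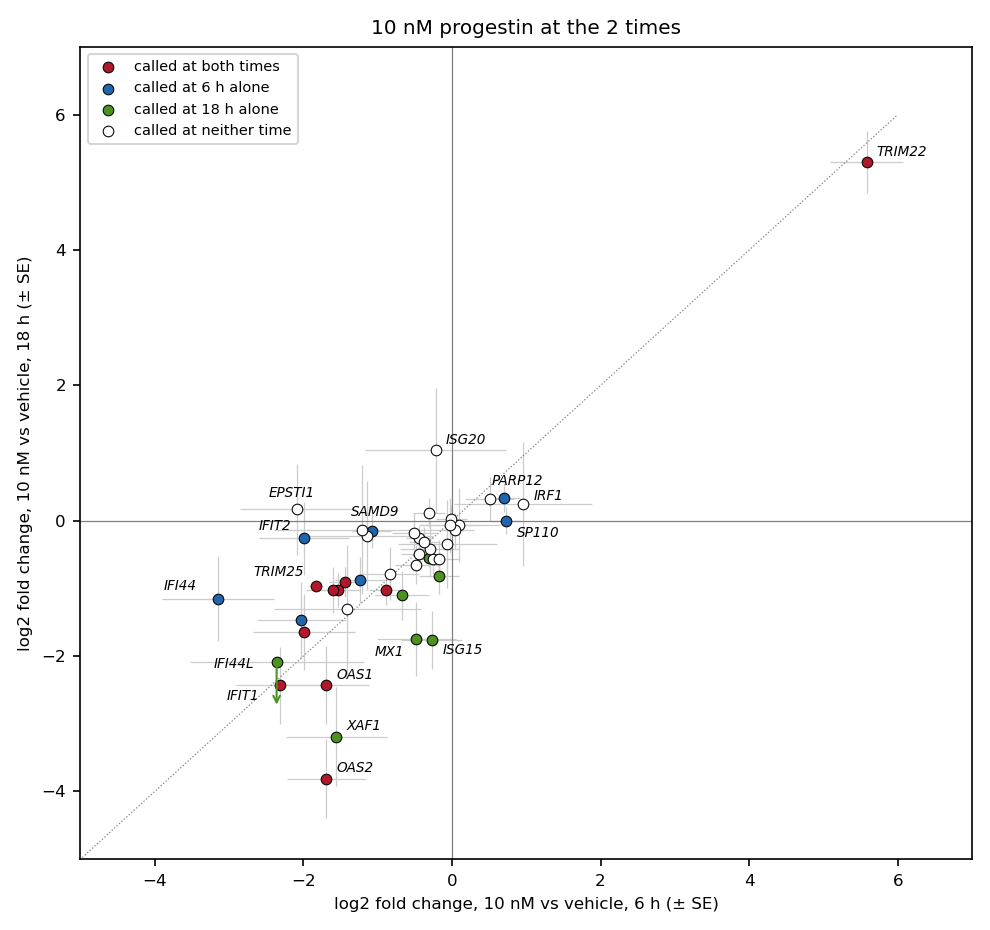
Log2 fold change against vehicle at 10 nM for 6 h (x axis) and 18 h (y axis) for the 46 genes, with SE bars and a dotted line of equal change. Colour marks where a gene was called and the arrow on IFI44L marks an upper bound of its 18 h change; OAS2, XAF1, MX1 and ISG15 lie below the line, IFI44, IFIT2, EPSTI1 and TRIM25 above it.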

How the data were processed

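The files hold raw read counts per gene symbol, deposited as 1 table for 12 libraries. The submitters' processing notes name STAR, DESeq2 and the genome build hg19. The read counter, the gene annotation, the strand setting and the tool versions were not given in any source used here, so overlapping genes cannot be told apart. The deposited counts were tested with edgeR 4.0.16 (R 4.3.3, limma 3.58.1), with TMM scaling, filterByExpr over the 6 groups and the robust quasi-likelihood F test, in 1 fit of all 12 libraries with 6 residual degrees of freedom. P-values were adjusted by the Benjamini-Hochberg method over the 13872 genes tested, and an adjusted p under 0.05 was a call, with no fold threshold. CPM are TMM-scaled. The SE is the log2 fold change divided by the square root of F. Replicate gaps used a pseudocount of 0.5 counts. Each deviation of a library from its group mean was compared across groups, and libraries with equal replicate numbers deviated together over genes (r = 0.403 to 0.601 in 15 pairs of groups), so a fit with replicate number as a block is also reported. Its counts stand beside each comparison, and its values beside the named differences from vehicle and between times whose call it changed. The labels do not say what a replicate number shares. The scripts were tested on simulated data. Other settings were DESeq2 1.42.0, its size factors in edgeR (RLE), no filter, each time alone, and each library left out. Values are given in every library for members with the smallest adjusted p in each dose comparison, at most 6 in each, and for 9 genes fixed by name, and pathway genes that are no members are named where called in a dose comparison. The values of some pathway genes, and a motif search, are not reported here. The members, lists and rules were chosen with earlier results of these data known.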

Additional observations from a re-analysis of the deposited data

Results flagged for a closer look

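The effect of 10 nM differed between 6 h and 18 h, by the test of the difference itself (edgeR, adjusted p over all genes tested), for 5 genes among the members and the pathway list. As 18 h minus 6 h, the difference was 0.86 ± 0.13 for TRIM25 (adjusted p = 0.0069), 1.25 ± 0.33 for JAK2 (adjusted p = 0.0473), 0.66 ± 0.15 for IL10RB (adjusted p = 0.032), -0.67 ± 0.13 for STAT3 (adjusted p = 0.0149) and -0.66 ± 0.16 for IRF2BP2 (adjusted p = 0.0364). TRIM25 was the 1 member among them (2.17% of the 46 called upward and 0% downward). Of the 36 tested pathway genes 2 were called upward and 2 downward (5.56% each), against 4.55% and 5.99% of all genes. Groups of 2 libraries allow no test for a library that stands apart from its group.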

How the results depend on the processing

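No call among the values checked changed direction. With 1 library left out, the medians for 100 pM at either time, for 18 h against 6 h in vehicle, and for the effects of 100 pM and of 10 nM between times took either sign (ranges below). Over the counts and medians of the members, 192 values under other settings kept their side of the threshold or stayed near the reported value, while 28 moved, 18 were stronger and 20 weaker. Single genes were checked on the called differences of the named genes and on all differences from vehicle of the 9 genes fixed by name. Of these values 958 kept their side of the threshold, 199 lost a call and 10 gained one. Over all members and the 6 dose comparisons the replicate block gained 58 calls, in 32 members, and lost none. With it the members called up at 100 pM numbered 5 at 6 h and 3 at 18 h, and those called down 2 and 5. At 10 nM 23 were down at 6 h, and 3 were up and 26 down at 18 h. Between doses 27 were down at 6 h, and 3 were up and 20 down at 18 h. Between times 1 was down for the 100 pM effect, and 6 were up and 3 down for the 10 nM effect. Under DESeq2 2 were down at 100 pM for 6 h, 2 up at 100 pM for 18 h, 1 up and 12 down between doses at 18 h, and 1 down for the 10 nM effect between times. The shares of all genes called under DESeq2 are not given here, so these counts do not set the members apart from other genes. The median at 100 pM for 18 h, -0.21 as reported, was -0.18 with RLE scaling, -0.20 without the filter, and -0.19 with 18 h alone and under DESeq2. Each time alone gives no value for the comparisons between times.

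With 1 library left out, the lone library of that group is assumed to vary like the others. The members called up then ranged from 1 to 2 at 100 pM for 6 h, from 1 to 2 at 10 nM for 6 h and from 0 to 1 between doses at 6 h. Those called down ranged from 5 to 12 at 10 nM for 6 h, from 5 to 14 between doses at 6 h, from 2 to 18 at 10 nM for 18 h and from 1 to 8 between doses at 18 h. The medians at 6 h ranged from -0.31 to 0.36 at 100 pM, from -0.90 to -0.31 at 10 nM and from -0.87 to -0.65 between doses. At 18 h they ranged from -0.54 to 0.21, from -0.86 to -0.28 and from -0.63 to -0.19. Between times they ranged from -0.10 to 0.60 in vehicle, from -0.62 to 0.16 for the 100 pM effect and from -0.39 to 0.35 for the 10 nM effect. The shares of all genes called in these fits are not given here, so the counts do not set the members apart from other genes. A left-out library leaves fewer samples, and beyond that the cause was not tested. Counts limit RTP4, IFI44L, CMPK2, EPSTI1 and TRIM22 in vehicle, where few reads stand behind each level.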

Other observations

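The genes around the members that were highest at 100 pM, and around TRIM22 and TRIM25, were looked up after those values were seen. On the chromosome (order of RefSeq starts) PARP9 and DTX3L are followed by PARP15, with 0 to 3 counts per library, and PARP14. The run is flanked by KPNA1 and HSPBAP1. At 100 pM for 6 h the 3 expressed members of this run gave 1.47, 0.84 and 0.72, of which PARP9 was called, while KPNA1 gave 0.10 ± 0.07 and HSPBAP1 0.03 ± 0.35, neither called. KPNA1 rose at 10 nM for 6 h (0.38 ± 0.07, adjusted p = 0.00277). Between the doses it was higher at 10 nM at 6 h (0.28 ± 0.07, adjusted p = 0.015) and lower at 18 h (-0.34 ± 0.07, adjusted p = 0.00815). HSPBAP1 was called in no dose comparison. HERC6 and HERC5 lie between PPM1K, a mitochondrial phosphatase gene that fell at 10 nM for 6 h (-1.30 ± 0.34, adjusted p = 0.0136), and PYURF, which rose there (0.51 ± 0.09, adjusted p = 0.00174). At 100 pM for 6 h PPM1K gave 0.34 ± 0.33 and PYURF 0.16 ± 0.09, neither called. Between the doses at 6 h PPM1K, like HERC6 and HERC5, was lower at 10 nM (-1.64 ± 0.34, adjusted p = 0.00546). PYURF was higher there (0.34 ± 0.09, adjusted p = 0.0138). Beside TRIM22, its relative TRIM5, a retroviral restriction factor, fell at 10 nM for 6 h (-0.60 ± 0.17, adjusted p = 0.0184) and rose at 18 h (0.52 ± 0.16, adjusted p = 0.0371). TRIM6, of the same cluster, fell at 10 nM for 6 h on 1 to 30 counts per library (-2.05 ± 0.63, adjusted p = 0.0287), and TRIM34 had 0 to 3 counts. At 100 pM for 6 h, where TRIM22 rose, TRIM5 gave 0.23 ± 0.16 and TRIM6 0.38 ± 0.49, neither called. Around TRIM25, the adjoining DGKE and COIL were called in no dose comparison without the block. AKAP1 rose against vehicle at both doses and times (0.99 and 1.02 at 100 pM, 1.07 and 0.52 at 10 nM, each ± 0.09). SCPEP1 rose at 100 pM and fell at 10 nM at both times. NOG, on 0 to 36 counts per library, rose at 10 nM at both times. At 10 nM for 18 h C17orf67 fell and ANKFN1 rose.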
